A study of Drosophila melanogaster with 3 samples.

Results

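The genes described here are the 48 protein-coding genes of Drosophila melanogaster that encode subunits of the proteasome, of 13945 protein-coding genes on the chromosome arms. The family was chosen with earlier results of these data known. Its members were taken by name: the symbol begins with Prosalpha, Prosbeta, or Rpn or Rpt followed by a digit. A suffix of T or R marks 16 of them as testis copies, and the other 32 are called standard genes, of which 14 encode the core and 18 the cap. For each gene, the summits of a protein's chromatin binding were counted within 500 bp of any annotated transcription start site (TSS), a stretch called the promoter below.

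The bound protein was CG16815, which has no name beyond its annotation number. Whole embryos of both sexes, 0 to 10 h old, came from a transgenic line that stably expresses CG16815 with green fluorescent protein (GFP) joined to its C terminus. Chromatin was sheared by sonication to sizes of 200 to 800, precipitated with an antibody against GFP and sequenced (ChIP-seq). The design holds 1 group of 3 biological replicates, with no second genotype, stage or treatment, and embryos without the tag were not analysed here. The labels give neither the promoter that drives the transgene nor the number of embryos in a replicate.

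The proteasome degrades proteins that carry ubiquitin chains. Its core is a barrel of stacked rings, in which the alpha subunits guard the entrance and some beta subunits cut the substrate. The cap sits on the barrel: its base holds the Rpt ATPases that unfold substrates and the receptors that recognise ubiquitin, and its lid removes the ubiquitin chain. Drosophila has extra copies of many subunit genes, and a number of these copies are known to be transcribed in the male germ line. Transcription was not measured here, so the name testis copy rests on the gene symbol.

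Sequences under 5 summits are shown first: the lines of Rpn5, Rpn3 and Rpn11 because these 3 genes carry the strongest summits of the family, and that of Prosalpha4 as a core gene below the authors' threshold. Rpn6, which also passed, and 3 genes that did not pass but ranked better than Prosalpha4 are described without a sequence. Each line gives the dm6 reference sequence on the strand of the gene, within 50 bp of the summit and shortened where an annotated UTR begins. Capitals mark matches, on either strand, to any of 12 short words searched in all promoters. Those found here are the TATA box word TATAAA, the core word of homeodomain proteins TAATTA, and the word CGATA, to which the insulator protein BEAF-32 binds.
Rpn5 (chr3R:5789176-5789276, plus strand): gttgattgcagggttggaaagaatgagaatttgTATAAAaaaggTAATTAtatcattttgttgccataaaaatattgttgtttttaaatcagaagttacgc
Rpn5 (chr3R:5789385-5789478, plus strand): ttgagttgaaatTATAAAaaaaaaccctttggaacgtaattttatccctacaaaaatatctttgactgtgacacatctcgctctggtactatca
Rpn3 (chr2L:19051707-19051789, plus strand): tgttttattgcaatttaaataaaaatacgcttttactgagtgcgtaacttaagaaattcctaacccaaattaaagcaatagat
Rpn11 (chr2L:5059957-5060057, minus strand): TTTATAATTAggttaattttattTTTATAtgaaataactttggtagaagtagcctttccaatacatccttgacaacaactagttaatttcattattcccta
Prosalpha4 (chrX:16276181-16276250, plus strand): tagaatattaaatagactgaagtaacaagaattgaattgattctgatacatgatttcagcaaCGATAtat
The first 4 lines come from 3 lid genes whose summits passed the authors' threshold, and Rpn5 has 2 such summits. The Prosalpha4 line belongs to a core gene whose summit missed that threshold. Over the 101 bp around all 5 passing proteasome summits, GC content ran from 24.8% at Rpn11 to 31.7% at Rpn6 and at the second Rpn5 summit, with a median of 27.7%. The 6 summits with q under 0.05 that did not pass ran from 21.8% at Prosalpha4 to 47.5% at Rpt5, and the 1714 passing promoter sites of the genome had a median of 30.7%. In the lines above, TATAAA occurs at both Rpn5 summits and at Rpn11, where it runs into TAATTA, and none of the 12 words occurs at Rpn3. A word is only a match of letters and not a binding site.

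The authors' final list held 3922 regions, called passing here, which were exactly the 3922 strongest regions of the list called on the pool of the 3 replicates. A passing summit lay at the promoter of 4 of the 48 proteasome genes, or 8.33% (95% Clopper-Pearson interval 2.32 to 20.0%), and of 15.9% of all protein-coding genes. The interval of the proteasome genes holds the share of all genes, so the family as a whole is not set apart by it. None of the 16 testis copies had a passing summit (interval 0 to 20.6%, which also holds the share of all genes), against 4 of the 32 standard genes, or 12.5% (interval 3.51 to 29.0%). The 14 core genes likewise had none (interval 0 to 23.2%), and all 4 were among the 18 cap genes, a share of 22.2% (interval 6.41 to 47.6%). The 4 genes were Rpn3, Rpn5, Rpn6 and Rpn11, and each encodes a subunit of the lid. The lid and the base were separated after these values had been seen, so the 4 of 8 lid genes against 0 of 10 base genes are a description with no test. Sem1, a further lid subunit whose symbol falls outside the naming rule, had no summit in the pooled or final list and ranked 19534 in replicate 2 alone. Such intervals cover counting error over genes only, and genes are not replicates.

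Rpn5, a scaffold subunit of the lid, had the strongest signal of the family. Its gene (FBgn0028690) lies at chr3R:5789493-5791569 on the plus strand. The first summit, 267 bp upstream of its TSS, had a pooled rank of 613 with a signal of 451.5, the authors' own value for the region. The same summit ranked 727 in replicate 1 (signal 87.7), 482 in replicate 2 (signal 291.6) and 1040 in replicate 3 (signal 76.3). A second passing summit, 65 bp upstream of the TSS, ranked 1180 in the pool, 1505 in replicate 1 and 906 in replicate 2. Replicate 3 had 1 summit between these positions, 88 bp from the first and 114 bp from the second, so both count the same region there. Signal was called separately in each list and its scaling is not stated, so lists are compared by rank. All 3 replicates placed Rpn5 well inside their 3922 best summits. Hat1, which encodes a histone acetyltransferase, lies on the opposite strand: the first summit was in an intron of Hat1 and the second in no annotated gene. The summits were 152 and 44 bp from the nearest Hat1 TSS, closer than to that of Rpn5, and to which gene they belong cannot be told apart.

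Rpn3 (FBgn0261396), another scaffold subunit of the lid, lies at chr2L:19051790-19053681 on the plus strand. Its summit was 33 bp upstream of the TSS, in no annotated gene, and ranked 1254 in the pool with a signal of 298.7. The replicates ranked it 2013, 1074 and 1372, with signals of 44.4, 189.4 and 63.9. The l(2)37Bb gene, on the opposite strand, begins 145 bp from the summit. Rpn11 (FBgn0028694) encodes the metalloprotease that removes ubiquitin chains from substrates, and lies at chr2L:5058404-5059790 on the minus strand. Its summit, 217 bp upstream, ranked 2210 in the pool with a signal of 200.9. The replicates ranked it 2033, 1997 and 2854, with signals of 44.0, 127.7 and 38.3. No other protein-coding TSS lay within 500 bp of it, so Rpn11 was the only passing member without a neighbour that shares its summit. Rpn3 and Rpn11 were thus inside the 3922 best summits of every replicate, as Rpn5 was.

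Rpn6, a lid subunit that contacts the core, was the weakest of the 4. The gene (FBgn0028689) lies at chr2R:14750166-14752910 on the minus strand, and the summit was in an intron of it, 140 bp upstream of the nearer of its 2 start sites. It ranked 3343 in the pool with a signal of 144.2 and 3220 in replicate 2 with a signal of 87.4. Replicate 1 had no summit within 150 bp, and the nearest in replicate 3, 136 bp away, ranked 11808 with a signal of 18.8. Only replicate 2 therefore placed Rpn6 among its 3922 best summits. Its summit was 110 bp from the TSS of ave, a gene of Raf signalling on the opposite strand.

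**Figure D1:**
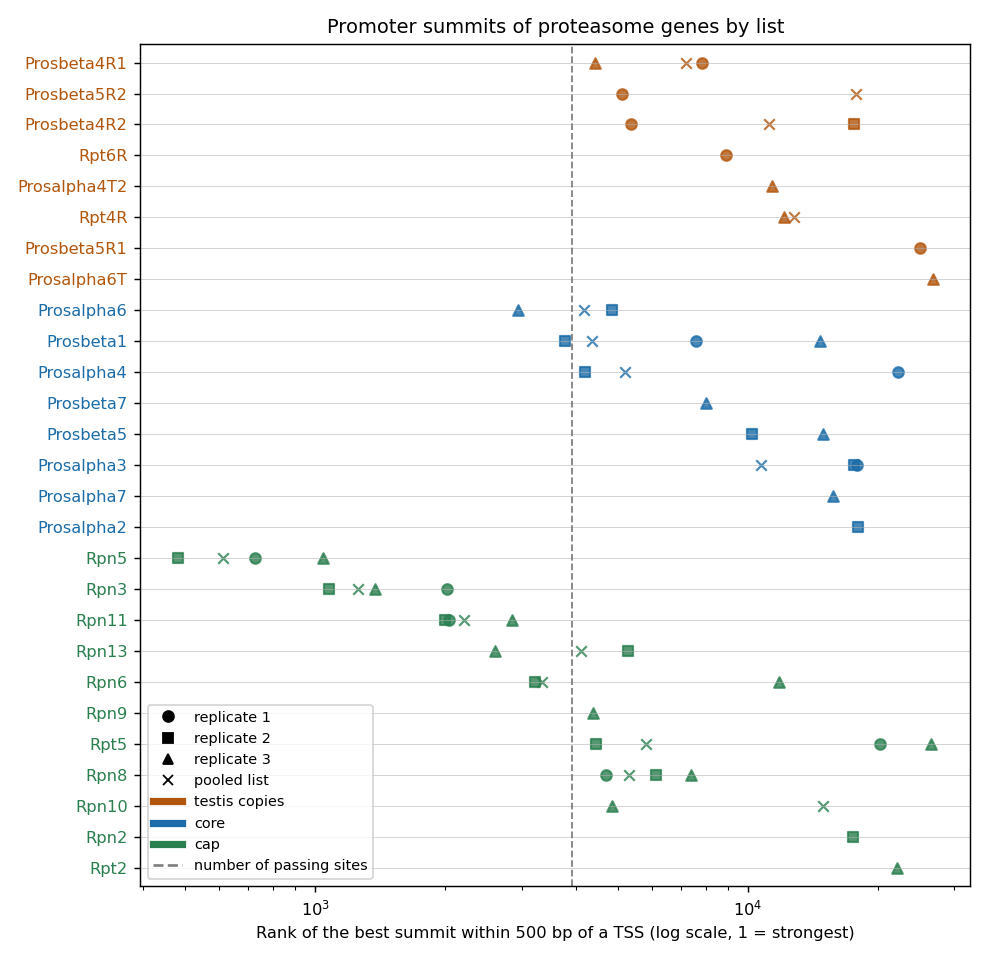
Rank of the best summit at the promoter of each proteasome gene (log scale, 1 is the strongest), for the 27 genes with a summit in at least 1 list. Colours mark testis copies, core and cap genes, symbols mark the list, and the dashed line stands at rank 3922. Rpn5, Rpn3 and Rpn11 lie left of the line in every list, and every testis copy lies right of it in every list.

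Below the threshold, 6 more standard genes had a pooled summit with a q-value under 0.05, which brought the count to 10 of 48 proteasome genes (20.8%), against 20.7% of all protein-coding genes. At this looser limit the family held nearly the same share as the genome. The 10 were 0 of 16 testis copies and 10 of 32 standard genes (31.2%, interval 16.1 to 50.0%). By class, 3 of 14 core genes and 7 of 18 cap genes were called. Rpn13, a ubiquitin receptor of the base, came closest to passing, at pooled rank 4121 and q = 0.00206. Rpn13 had a summit at rank 5283 in replicate 2 and 2608 in replicate 3, and none within 150 bp in replicate 1. The last passing region had a signal of 124.8, and that of Rpn13 was 119.3.

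Of the core genes, Prosalpha6, an alpha ring subunit, ranked 4170 in the pool (q = 0.00228), 4846 in replicate 2 and 2940 in replicate 3, with no summit within 150 bp in replicate 1. Its summit lay 190 bp upstream of its own TSS, in the 5′ UTR of Npc1a, a cholesterol transporter gene on the opposite strand. Prosbeta1, the subunit that cuts after acidic residues, ranked 4357 in the pool (q = 0.00264). Prosbeta1 had a summit in every replicate, at ranks 7574, 3780 and 14705, and a second pooled summit 232 bp downstream of the TSS at rank 6392. Prosalpha4, whose sequence is shown above, ranked 5211 in the pool (q = 0.0168) and 4207 in replicate 2. It had no summit within 150 bp in replicates 1 and 3. The pooled summit was 70 bp upstream of the Prosalpha4 TSS and 20 bp from that of kat80, on the opposite strand. The best replicate ranks of Prosalpha6, Prosbeta1 and Prosalpha4 were thus 2940, 3780 and 4207. No core gene was inside the limit of 3922 in more than 1 replicate.

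The remaining cap genes at this limit were Rpn8 and Rpt5. Rpn8 encodes the inactive partner of Rpn11 in the lid. It ranked 5322 in the pool (q = 0.0193) and was present in every replicate, at ranks 4701, 6124 and 7396, all outside the 3922 best. Its summit lay in an intron of Rpn8, 151 bp upstream of an internal start site and 174 bp from the TSS of Slik, a kinase gene on the opposite strand. Rpt5, an ATPase of the base, ranked 5818 in the pool (q = 0.0362), 20176 in replicate 1 and 4457 in replicate 2. In replicate 3 its promoter summit, over 150 bp away, ranked 26567. The pooled summit was 22 bp upstream of the Rpt5 TSS and 20 bp from that of RanBP3, on the opposite strand. All 6 genes just below the threshold had a protein-coding gene on the opposite strand with a TSS within 500 bp. The same arrangement was found for 21 of all 32 standard genes and for 52.4% of all protein-coding genes called at this limit.

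The full pooled list, which also holds background, gave a summit to 16 of 48 proteasome genes (33.3%), against 32.2% of all protein-coding genes. It gave one to 4 of 16 testis copies (25.0%) and to 12 of 32 standard genes (37.5%). The 4 copies were Prosbeta4R1 (pooled rank 7185, q = 0.153), Prosbeta4R2 (rank 11211, q = 0.584), Rpt4R (rank 12809, q = 0.708) and Prosbeta5R2 (rank 17820, q = 0.928). Copies with a pooled summit had a median rank of 12010 (n = 4), standard genes 4264 (n = 12) and all protein-coding genes 3991 (n = 4487). Prosbeta4R1 and Prosbeta4R2, neighbours on 2L that both derive from the beta4 family, were the only copies with a summit in more than 1 replicate. Prosbeta4R1 ranked 7821 in replicate 1 and 4442 in replicate 3, and Prosbeta4R2 ranked 5365 in replicate 1 and 17625 in replicate 2. The summits at Prosbeta4R1 and Rpt4R lay in their own coding exons and that at Prosbeta4R2 in a coding exon of Or23a, an odorant receptor gene.

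The side of the TSS on which summits lay was recorded for the best pooled summit of each gene. This best pooled summit was upstream of the nearest TSS in 12 of 12 standard genes, at -267 to -22 bp with a median of -64 bp, and in 2 of 4 testis copies. Among all protein-coding genes with any pooled summit, 83.1% had it upstream, and among those with a passing summit 90.8%, at a median of -157 bp. The 4 passing proteasome genes had a median of -178 bp. The passing proteasome summits thus lay where passing promoter summits lay in general, and the difference in medians was not tested.

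**Figure D2:**
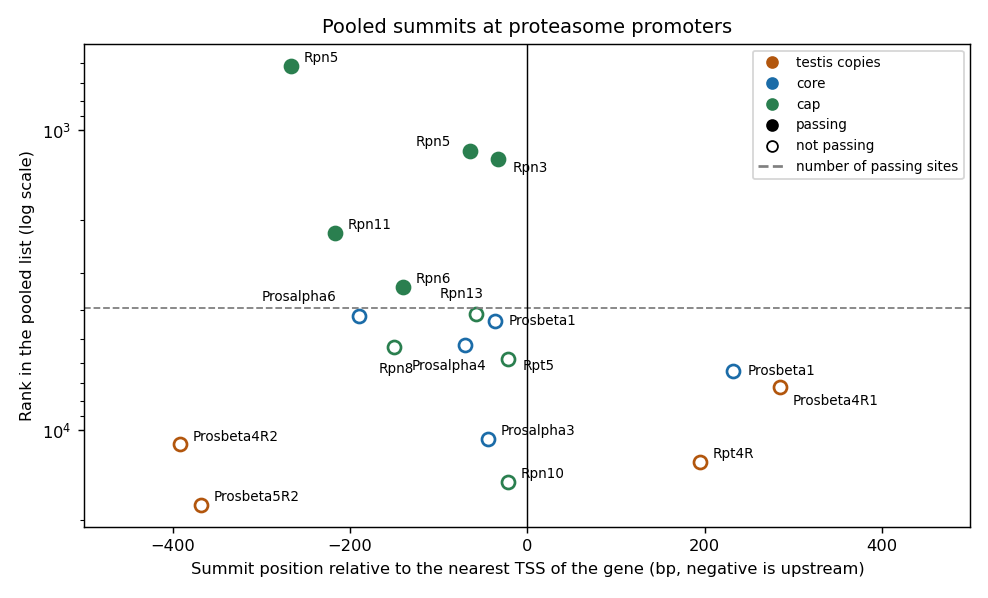
Position of each pooled summit relative to the nearest TSS of the gene (bp, negative is upstream) against its rank in the pooled list (log scale), for the 16 proteasome genes with such a summit. Filled points passed the authors' threshold, at or above rank 3922 (dashed line). The 5 passing summits lie between -267 and -33 bp, while testis copies lie at ranks from 7185 to 17820 on both sides of the TSS.

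The split between copies and standard genes was then measured in each replicate. Among the 3922 best-ranked summits of a replicate, testis copies had 0, 0 and 0 promoters with a summit in replicates 1, 2 and 3, and standard genes had 3, 5 and 5. The standard genes correspond to 9.38%, 15.6% and 15.6%, beside 14.3%, 16.5% and 14.3% of all protein-coding genes. Testis copies minus standard genes came to -13.5 percentage points on average (SD 3.61, n = 3), with the same sign in 3 of 3 replicates. With no copy called in any replicate, the difference could not be above 0, so the shared sign adds no support. An exact two-sided sign permutation test over the replicates gave p = 0.25, the smallest p that 3 replicates allow. The pooled list, in which no copy had a passing summit, was made from these same replicates. The shares of the copies therefore restate that observation. Within the standard genes, the lid averaged 41.7% ± 7.22 (SD, n = 3), the base 3.33% ± 5.77 and the core 4.76% ± 4.12. The pooled list that prompted the separation of the lid was made from these same replicates, so the lid's shares restate that observation and lend it no support.

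With every summit of a replicate that had q under 0.05, testis copies again had none in any replicate, and standard genes had 3, 10 and 6. The share of all protein-coding genes was 14.6%, 22.6% and 15.4%. Copies minus standard genes was -19.8 percentage points (SD 11.0, n = 3, exact two-sided sign permutation p = 0.25). Here too no copy was called, so the difference could not be positive. In the complete replicate lists, background included, copies had 5, 1 and 4 promoters with a summit and standard genes 8, 14 and 15, while all protein-coding genes had 32.8%, 36.2% and 38.5%. Here the difference was -17.7 percentage points with an SD of 22.2 (n = 3, exact two-sided sign permutation p = 0.5), so it was within the spread between replicates. In replicate 1 the copies, at 31.2%, were above the standard genes, at 25.0%. The lists were of unlike length, at 30000, 21989 and 27358 regions for replicates 1, 2 and 3. Copies thus had no promoter among the best-ranked summits and some in the complete lists, and the settings were not tested against each other.

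**Figure D3:**
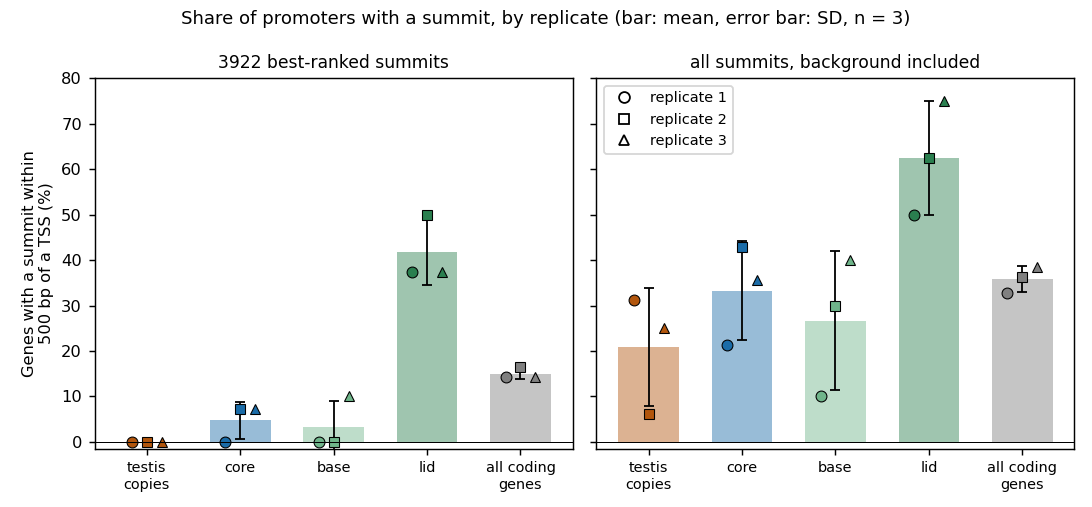
Percentage of promoters with a summit in each replicate, for testis copies (n = 16 genes), core (14), base (10), lid (8) and all protein-coding genes (13945), with bars for the mean and error bars for the SD over 3 replicates. Testis copies are at 0 in every replicate among the 3922 best-ranked summits on the left, and average 20.8% when all summits are counted on the right.

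Replicates also differed in how often they returned to the same gene. A summit of any rank was present in 3 of 3 replicates for 0 of 16 testis copies and for 6 of 32 standard genes, namely Prosbeta1, Rpn3, Rpn5, Rpn8, Rpn11 and Rpt5. Among all protein-coding genes this held for 19.2%. No summit in any replicate was found for 8 of 16 copies, 13 of 32 standard genes and 44.1% of all protein-coding genes. The standard genes without any were Prosalpha1, Prosalpha5, Prosbeta2, Prosbeta3, Prosbeta4, Prosbeta6, Rpn1, Rpn7, Rpn12, Rpt1, Rpt3, Rpt4 and Rpt6, and the copies were Prosalpha1R, Prosalpha3T, Prosalpha4T1, Prosbeta2R1, Prosbeta2R2, Rpn12R, Rpn13R and Rpt3R. Prosbeta2, the subunit that cuts after basic residues, and most of the Rpt ring were thus among the genes with no summit. Prosbeta5, the subunit that cuts after hydrophobic residues, had weak summits in replicate 2 (rank 10207) and replicate 3 (rank 14919) and none in the pool. Prosalpha3 had them in replicate 1 (rank 17897) and replicate 2 (rank 17634), with a pooled rank of 10718.

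A summit in exactly 1 replicate was found for 6 of 16 copies and 7 of 32 standard genes, beside 3292 of all 13945 protein-coding genes. Of the standard genes, Rpn9 of the lid ranked 4394 and the ubiquitin receptor Rpn10 ranked 4856, both in replicate 3, and Prosbeta7 ranked 8003 there. Prosalpha2, Prosalpha7, Rpn2 and Rpt2 ranked from 15740 to 22118 in their replicate. The copies with 1 replicate included Rpt6R, an ATPase copy, at rank 8916 in replicate 1. Prosalpha4T2 was present in replicate 3 alone at rank 11396, and Prosbeta5R1 in replicate 1 alone at rank 24998.

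The median distance to binding was longer for the copies. The distance from a TSS to the nearest passing summit had a median of 45611 bp over the 16 copies, with a range of 3994 to 131430 bp. The median was 5246 bp over the 32 standard genes and 9093 bp over all protein-coding genes. Core and cap genes had medians of 9764 and 4728 bp. Prosbeta2R2 was the copy closest to a passing summit.

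The arrangement of neighbouring genes was compared next. A protein-coding gene on the opposite strand with a start site within 500 bp was found for 3 of 16 testis copies (18.8%), 21 of 32 standard genes (65.6%) and 27.4% of all protein-coding genes. Because a summit between such genes counts for both, calls were compared within each arrangement. With a divergent neighbour, 3 of 21 standard genes (14.3%) had a passing summit, beside 32.0% of all protein-coding genes so arranged. Without one, 1 of 11 standard genes (9.09%) did, beside 9.87%. At the looser limit of q under 0.05 in the pooled list, the shares with a divergent neighbour were 42.9% of standard genes and 39.6% of all genes. Without one they were 9.09% and 13.6%. None of the 3 copies with a divergent neighbour, Prosalpha1R, Prosbeta2R2 and Rpt3R, and none of the 13 without one had a passing summit. The part of the arrangement in the difference between copies and standard genes was not tested.

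Words in the promoter sequence were then counted. The windows ran from 250 bp before to 50 bp after the most 5′ TSS, and 12 words were searched on both strands. TATCGATA, the DNA replication-related element (DRE) of many housekeeping promoters, occurred in 0 of 16 testis copies and 12 of 32 standard genes (37.5%), beside 9.36% of all protein-coding promoters. The 8 printed below, from 3 core and 5 cap genes, show the element in capitals with 10 bp on each side.
Prosalpha6 (chr2L:10221325-10221352, plus strand): ccgaatccctTATCGATAcccgatacac
Rpn3 (chr2L:19051583-19051610, plus strand): gttatcggagTATCGATAtcgaaaaggc
Prosbeta2 (chr3L:14999931-14999958, plus strand): catgaatataTATCGATAcaatatcgat
Rpn12 (chr3L:16582802-16582829, plus strand): tgttaaaataTATCGATAttaaagcaca
Prosbeta6 (chr3L:16610445-16610472, minus strand): tatgtataccTATCGATAacgtttaagc
Rpn7 (chr3R:22462034-22462061, minus strand): cggtataattTATCGATAattttggggt
Rpn9 (chr3R:23733419-23733446, minus strand): cccggttaaaTATCGATAttctcgcgga
Rpt5 (chr3R:23752820-23752847, plus strand): tcgctgtcacTATCGATAagcgccggcg
The first base of the element was upstream of the TSS in 10 of the 12 genes, from 217 bp before it to 26 bp after it. At Rpn3 it lay at -197 bp, apart from the summit sequence printed above. CGATA, which every DRE contains, was found in 8 of 16 copies, 27 of 32 standard genes (84.4%) and 47.4% of all promoters. Motif 1 (GGTCACAC), another word of housekeeping promoters, was in 0 of 16 copies, 5 of 32 standard genes (15.6%) and 7.7% of all promoters. TGACNNNGC, the antioxidant response element that Nrf factors bind in mammals, was in 1 of 16 copies, 5 of 32 standard genes (15.6%) and 8.63% of all promoters. The TATA box was in 5 of 16 copies, 13 of 32 standard genes (40.6%) and 45.8% of all promoters. The DRE core ATCGAT, which lies inside the DRE and overlaps CGATA, was in 1 of 16 copies, 17 of 32 standard genes (53.1%) and 23.3% of all promoters. Motif 7 (CANCNCTA) was in 2 of 16 copies, 9 of 32 standard genes (28.1%) and 15.6% of all promoters. The GATA word TGATAA was in 6 of 16 copies, 8 of 32 standard genes and 22.7% of all promoters, and the homeodomain word TAATTA in 2 of 16, 3 of 32 and 20.4%. The repeat GAGAGAG was in 2 of 16 copies, 0 of 32 standard genes and 5.87% of all promoters. The E-box CAGCTG was in 1 of 16 copies, 1 of 32 standard genes and 17.7% of all promoters, and the Myc E-box CACGTG in 0 of 16, 0 of 32 and 4.2%. Relative to all promoters, the standard genes were thus highest for the DRE, at 37.5% against 9.36%, and no test was run. Median GC content was close in the classes, at 32.7% for copies and 33.5% for standard genes, beside 38.0% for all promoters.

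Standard genes with and without a DRE were set against the summits. A passing summit was found for 1 of 12 standard genes with a DRE, Rpn3, and for 3 of 20 without one (15.0%). Over all protein-coding genes the shares were 21.9% with a DRE and 15.3% without. With a pooled summit at q under 0.05, 5 of 12 standard genes with a DRE (41.7%) and 5 of 20 without (25.0%) were called, beside 29.8% and 19.7% of all genes. The order of the standard genes thus depended on the limit. Within 50 bp of the summits themselves, the DRE was found at 0 of 5 passing proteasome sites, at 1 of the 6 that did not pass, that of Rpt5, and at 1.93% of the 1714 passing promoter sites of the genome. TATAAA was found at 4 of the 5 passing proteasome sites, 0 of the 6 others and 25.3% of the passing sites of the genome. CGATA was found at 1 of 5, 3 of 6 and 16.9%. The 2 Rpn5 sites are counted separately, and no test was run on these few sites.

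**Figure D4:**
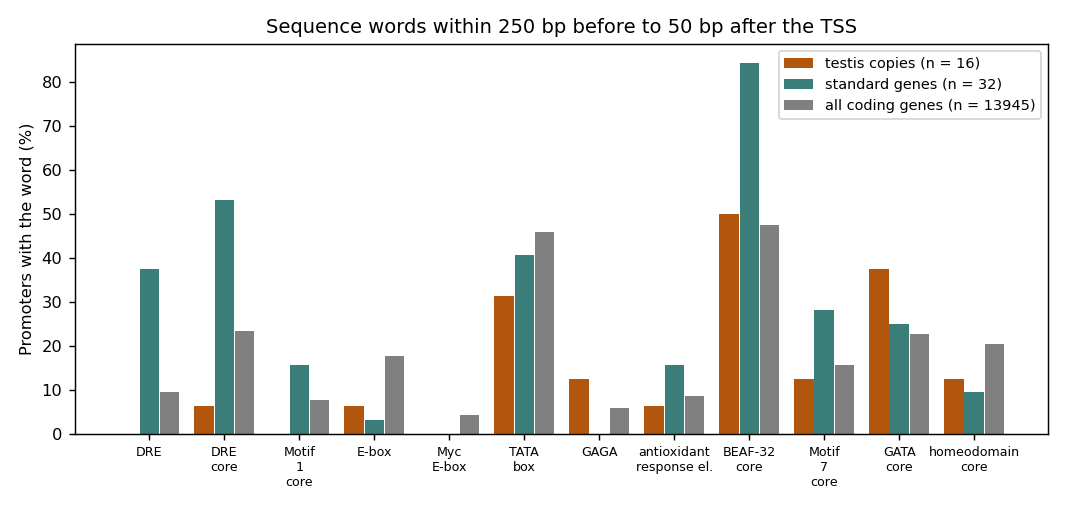
Percentage of promoters, 250 bp before to 50 bp after the TSS, that hold each of 12 words on either strand, for 16 testis copies, 32 standard genes and 13945 protein-coding genes. The DRE is in 0% of copies, 37.5% of standard genes and 9.36% of all promoters.

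The copies are distinct enough in sequence for their promoters to be told apart, with 1 exception. Translated from the annotated coding sequence, each copy was aligned with the standard subunit of its name, and identity ran from 37.5% for Rpn13R to a full match for Prosalpha1R, with a median of 60.4%. The ATPase copies were the next closest to their standard subunits, at 88.9% for Rpt6R, 82.0% for Rpt3R and 81.9% for Rpt4R. Prosalpha1R and Prosalpha1 lie close together on the same strand and share an identical stretch of 984 bp between their promoter windows of 1001 bp. Neither had a summit in any list, but reads from them cannot be assigned to either gene, so both are uncertain. In the other 15 copies the longest stretch shared with the standard promoter was 10 to 25 bp.

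Prosalpha6T, the testis copy of Prosalpha6, is the neighbour of the tagged gene itself: it lies at chr2L:13232039-13233058, and CG16815 ends 1489 bp before it. Within 10000 bp of the Prosalpha6T TSS, replicates 1, 2 and 3 had 1, 0 and 12 summits, and the pooled list had 2. The density of each list over the arms would give 4.48, 3.29, 4.09 and 2.8. Replicate 3 alone therefore held more summits than its density, and 4 of its 12 were among its 3922 best. In the gene itself, replicate 3 had summits 134 bp (rank 26746) and 933 bp (rank 3906) after the TSS. The line expresses tagged CG16815 from a transgene, and the labels do not say how much neighbouring sequence the transgene holds. The part of the transgene in the replicate 3 summits was not tested.

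**Figure D5:**
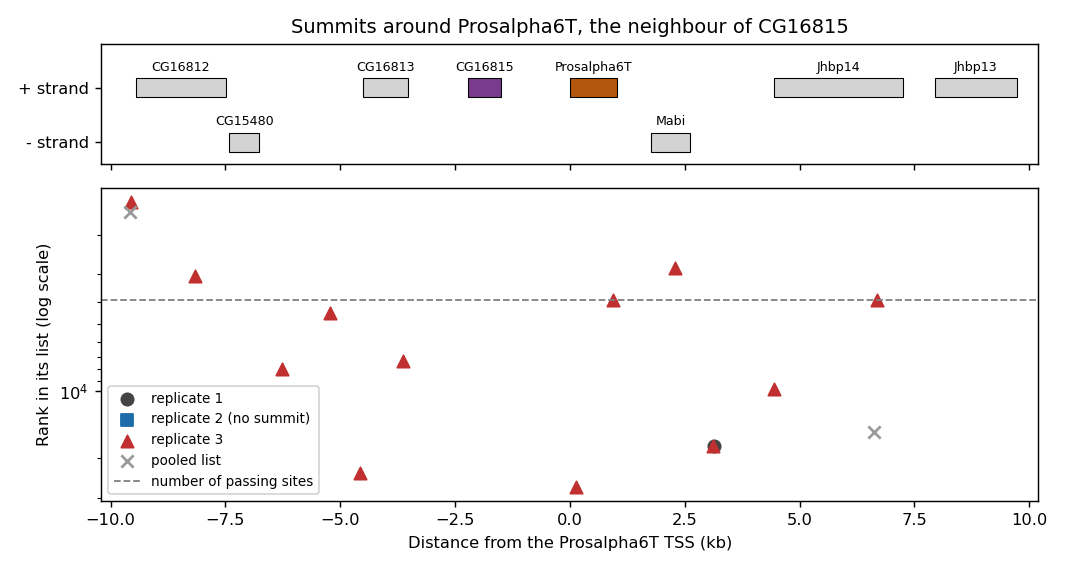
Summits within 10 kb of the Prosalpha6T TSS by list, against their rank (log scale), with the genes of each strand above. Replicate 3 has 12 summits spread over the stretch, replicate 1 has 1 and replicate 2 has none.

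Genes that work with the proteasome but fall outside the naming rule were examined as a list of 26, of which 25 matched a gene. They encode the assembly factor Pomp, regulators, shuttle receptors, cap-associated proteins, the small lid subunit Sem1, the segregase and its cofactors, ubiquitin and its enzymes, and transcription factors of proteasome genes. A passing summit was found for 9 of 25 (36.0%), beside 8.33% of the proteasome genes and 15.9% of all protein-coding genes. Among the 3922 best summits of replicates 1, 2 and 3 the list had 4, 6 and 8 genes, or 16.0%, 24.0% and 32.0%, again beside 14.3%, 16.5% and 14.3% of all genes. The list was chosen with earlier results known and was given no interval and no test. Its genes were not split by the arrangement of their neighbours.

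Pomp, the chaperone that assembles the core, had the best-ranked summit of this list, at pooled rank 1191 and at ranks 2024, 1120 and 1113 in the replicates. It was the only assembly factor in the list, and the core genes whose products it assembles had no passing summit. Among the regulators, ntc, an F-box protein of sperm maturation, ranked 1407 in the pool, with no summit in replicate 1 and ranks of 1141 and 1927 in replicates 2 and 3. PI31, a proteasome-binding regulator and partner of ntc, ranked 3525, with 5201, 3963 and 2760 in the replicates. PI31 thus passed although only replicate 3 placed it among its 3922 best.

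The transcription factor cnc, the fly's Nrf protein, which activates proteasome genes, ranked 2381 in the pool and 2748, 1810 and 4125 in the replicates. Keap1, which restrains cnc, ranked 3277 in the pool and 14751, 3328 and 2341 in the replicates. Their partner maf-S missed the threshold at pooled rank 5071 (q = 0.0125). At that limit 10 of the 25 listed genes were called, beside 20.7% of all protein-coding genes, and maf-S was named after its value had been seen. Of these 3 genes, cnc alone was among the 3922 best of replicate 1.

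Of the ubiquitin genes, the polyubiquitin gene Ubi-p63E ranked 1709 in the pool and 1278, 1880 and 1862 in the replicates. RpS27A, which encodes ubiquitin fused to a ribosomal protein, ranked 3699 in the pool, with no summit in replicate 1 and ranks of 4260 and 1413 in replicates 2 and 3. Ubi-p5E, the other polyubiquitin gene, had no summit in any list. Plap and Npl4, which work with the segregase TER94, ranked 2033 and 3717 in the pool. Plap was among the best 3922 of every replicate, at ranks 1991, 1803 and 3681, while Npl4 was so in replicate 3 alone, at rank 2210. TER94 itself had no promoter summit.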

How the data were processed

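ChIP-seq regions of 3 biological replicates, 1 group, were used as deposited in dm6 coordinates. Per the README texts deposited with them, each replicate list and the pooled list hold peaks and background, and the final list derives from them at an irreproducible discovery rate (IDR) threshold. Each relaxed list also derives from 1 file of unstated nature. The sources used here name no aligner or peak caller and give no threshold. The deposited signal of a region was used only to rank it within its list, and the deposited −log10 q-value only for a limit of 0.05. Read depth is unknown. Lists held 30000, 21989 and 27358 regions for replicates 1, 2 and 3, 18764 for the pool and 3922 in the final list.

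A gene was called when a summit lay within 500 bp of any TSS of the Ensembl release 115 annotation. Summits within 150 bp counted as shared between lists. Sequences are the RefSeq dm6 genome. Every member may be named, in full where a summit passed or had q under 0.05. Of other genes, the text names those sharing a passing summit, some of those sharing a summit below the threshold, and the related genes that passed. Sem1 and Or23a were also named, and maf-S, TER94 and Ubi-p5E were chosen after their values were seen. The members and lists were chosen with earlier results of these data known. The call was tested on simulated data. Python 3.11.15, pandas 2.3.3, scipy 1.17.1 and biopython 1.88 were used. The labels call the replicates biological without naming their source, so the exact permutation p-values measure only the spread between these samples. Windows, limits, TSS choice and left-out replicates were varied.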

Additional observations from a re-analysis of the deposited data

How the results depend on the processing

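A passing summit was found for 15.9% of all genes in the main setting. The share was 12.1% and 18.4% with promoter windows of 250 and 1000 bp, and 13.9% with the most 5′ TSS only. The 4 passing proteasome genes (4 of 18 cap genes) were the same in each of these settings. They became 2 with the 1961 strongest passing sites (Rpn3 and Rpn5; 9.76% of all genes), 2 with each summit given to the nearest gene only (Rpn3 and Rpn11; 11.4%) and 10 with pooled q under 0.05 (7 cap and 3 core genes; 20.7%). Summits shared by the other 2 replicates gave 3 genes, all cap, whichever replicate was left out, Rpn6 being lost each time. Of all genes, 12.1%, 10.5% and 13.0% were called without replicates 1, 2 and 3. No alternative called a testis copy in the final or pooled q lists. Among best-ranked replicate summits, the standard share of 13.5% became 5.21% with the 1961 best summits, 19.8% with q under 0.05 and 38.5% with every summit, and was 12.5 to 15.6% with a replicate left out. The share of copies, 0%, became 2.08% with a 1000 bp window, from the replicate 3 summit in Prosalpha6T, and 20.8% with every summit, and stayed 0 to 0% without any replicate. Copies with any pooled summit fell to 1 in a 250 bp window. The remaining 47 values were counted as unchanged, although some of them shifted. Among these, replicate matches at the 4 passing genes went from 11 of 12 within 150 bp to 8 of 12 within 75 bp. No paired analysis was possible because the labels give 1 group; only gene classes were compared within each replicate. Depth could not be judged without read counts.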
